A study of Drosophila melanogaster and Drosophila simulans and Drosophila yakuba with 4 samples.

Results

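The olfactory (Or), gustatory (Gr) and ionotropic (Ir) receptor genes of Drosophila melanogaster were examined in RNA-seq of white prepupae, the brief stage at which the larva stops crawling and begins to form the puparium. The genes were taken by their symbols, together with Orco, the co-receptor of the olfactory family. Of 186 symbols that fit the rule in the gene name table, 180 were listed in the library, out of 15492 listed genes: 60 olfactory (Orco included), 57 gustatory and 63 ionotropic receptor genes. The 6 symbols with no match, Gr2a, Gr22c, Gr64b, Ir47b, Ir56e and Ir60f, were not analysed here.

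The study profiled white prepupae of 4 Drosophila species by RNA-seq beside the repressive histone mark H3K27me3, and 1 library per species was present, from total RNA of untreated whole animals. The sources used here give neither the strain, the sex nor the number of animals per library. The library is called D. melanogaster by its title, while its organism field names D. yakuba and the field of the D. yakuba library names D. melanogaster. The title was used, and 14872 of the 15492 gene identifiers in the table are found in the D. melanogaster gene table.

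Olfactory receptors sit in the dendrites of odor-sensing neurons and work only as a complex with Orco. Gustatory receptors detect sugars, bitter compounds and, as the pair Gr21a and Gr63a, carbon dioxide, while ionotropic receptors are relatives of the ionotropic glutamate receptors that sense acids, amines, humidity and temperature together with the broadly used co-receptors Ir8a, Ir25a and Ir76b. Each receptor is typically made in a few neurons of an olfactory or taste organ, and at the white prepupal stage the larval sense organs are still present while those of the adult antenna and mouthparts have yet to form.

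Expression was given as FPKM, fragments scaled to transcript length and to the mapped total, with a lower and an upper bound for each gene. Most receptor genes were listed at 0 or at a few reads. Of the 180 genes, 68 (37.8%) were listed at 0, against 10.9% of all listed genes, and 89 (49.4%) lay above 0 and below FPKM 1. The other 23 (12.8%) reached FPKM 1 or more, against 74.5% of all listed genes. The median receptor gene had an FPKM of 0.0830, compared with 6.90 over all listed genes. Among the 13280 listed genes whose type in the dm6 annotation is protein-coding, 79.2% reached FPKM 1 and 6.08% were listed at 0. In whole animals, few expressing cells and little RNA per cell cannot be told apart.

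The families had 36.7% to 39.7% of their genes at 0. Among the olfactory receptor genes 22 (36.7%) were listed at 0, 32 (53.3%) lay between 0 and 1, and 6 (10%) were at FPKM 1 or more. The gustatory genes divided into 21 (36.8%) at 0, 26 (45.6%) between 0 and 1, and 10 (17.5%) at FPKM 1 or more. Of the ionotropic genes, 25 (39.7%) were at 0, 31 (49.2%) between 0 and 1, and 7 (11.1%) at FPKM 1 or more. Median FPKM was 0.0867 for the olfactory, 0.0820 for the gustatory and 0.0474 for the ionotropic family. In each family the median gene had 1 read, which over the genes above 0 was worth a median FPKM of 0.0771, 0.0774 and 0.0459 in the same order. With 1 library and no replicate, no difference between families could be tested, since genes are not replicates.

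**Figure D1:**
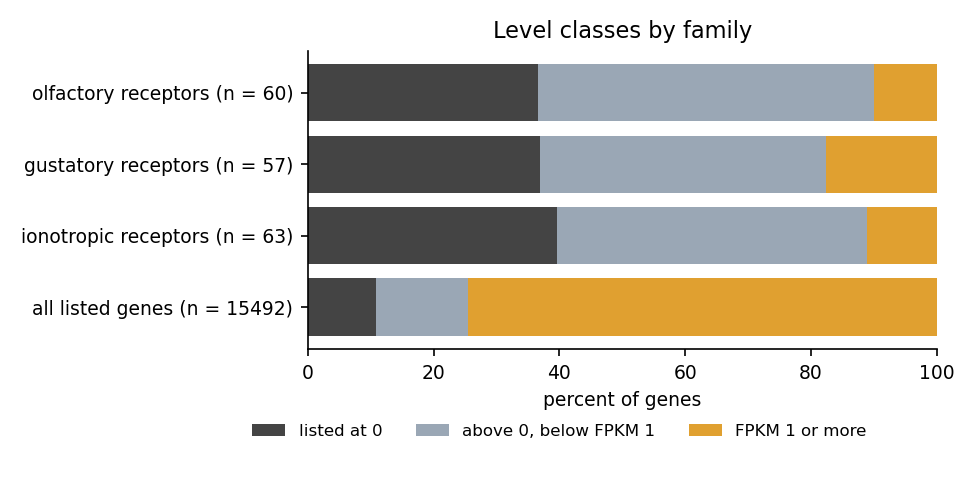
Percent of genes (horizontal axis) listed at 0, between 0 and FPKM 1, and at FPKM 1 or more, for each receptor family and for all listed genes of the D. melanogaster white prepupa library. The segment at FPKM 1 or more takes 10% to 17.5% of each receptor family and 74.5% of all listed genes.

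Single genes held from 22.05% to 69.4% of the summed FPKM of their family. Ir75d held 69.4% of the summed FPKM of the ionotropic family, which was 154.8 with it and 47.3 without it. Or43b held 43.98% of the olfactory sum of 32.8, and Gr97a held 22.05% of the gustatory sum of 30.8. Over all 180 genes the deposited bounds imply 3706 reads, or 0.0308% of the 12038283 reads implied for the library. Of these 3706 reads, 51.7% were counted to Ir75d and 69.8% to the 4 receptor genes at FPKM 10 or more.

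**Figure D2:**
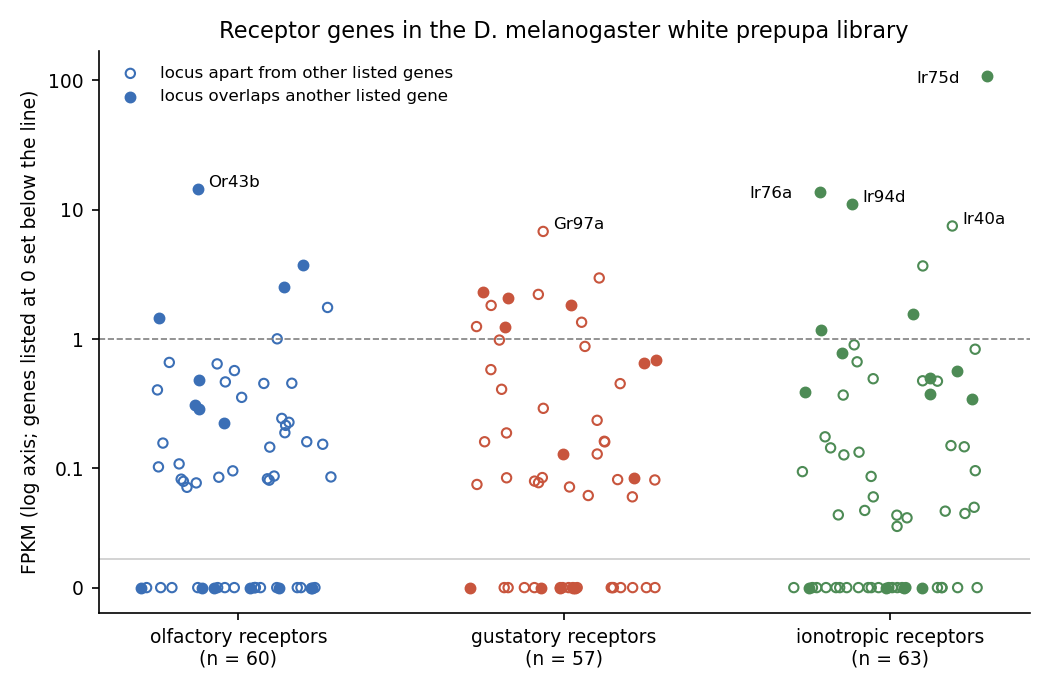
FPKM of each of the 180 receptor genes (log axis, 1 point per gene, genes listed at 0 set below the gray line), with filled points for genes whose locus overlaps another listed gene and the dashed line at FPKM 1. All 4 points above FPKM 10, Ir75d at 107.4, Or43b at 14.4, Ir76a at 13.7 and Ir94d at 11.0, are filled. Of all listed genes at FPKM 10 or more, 43.9% overlap another listed gene.

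The depth limits what a low value can tell. For the receptor genes above 0, FPKM per implied read had a median of 0.0714, so that FPKM 1 corresponded to a median of 14.0 reads. The range was from 0.0283 to 0.159. The highest value was that of Gr23a, a gene with 2 annotated transcripts whose bounds imply 0.513 reads, so it is not the worth of a whole read. A count of 0 allows up to 3 reads, a median FPKM of 0.214 across the receptor genes above 0. By the reads their bounds imply, 56 receptor genes above 0 had at most 3 reads (21 olfactory, 18 gustatory and 17 ionotropic), which with the 68 at 0 makes 124 genes at or under that floor. The remaining 56 lay above it, with 17 olfactory, 18 gustatory and 21 ionotropic genes. Read floors cover counting error only, and neither they nor the bounds cover differences between animals or libraries.

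**Figure D3:**
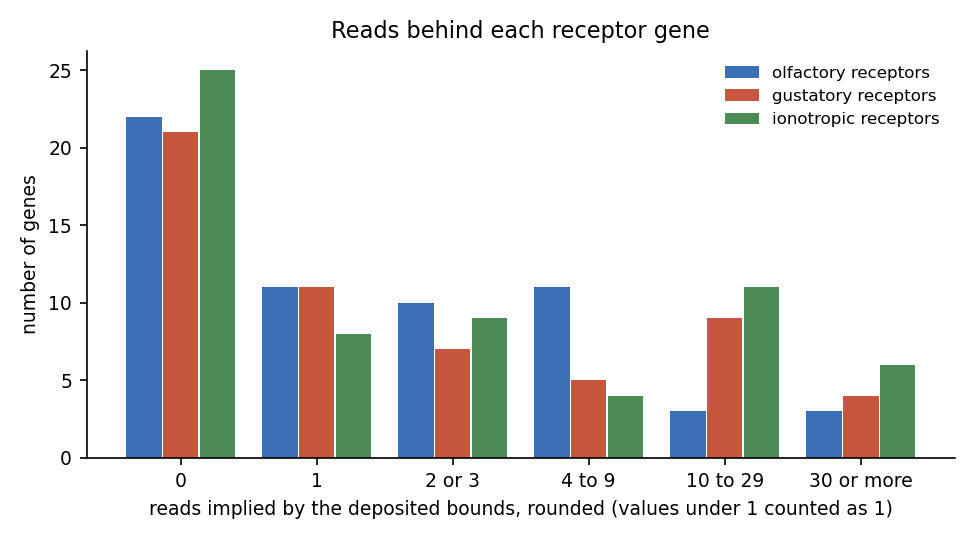
Number of receptor genes of each family (vertical axis) by the reads their deposited bounds imply (horizontal axis, rounded to whole reads, values under 1 counted as 1). In every family the bar at 0 is the highest, and 13 of the 180 genes have 30 reads or more.

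The co-receptors, which most olfactory and ionotropic receptors need to reach the dendrite, were all below FPKM 1. Orco was at 0.108 with bounds of 0 and 0.289, worth about 1.44 reads. Ir25a, the most widely used ionotropic co-receptor, stood at 0.473 (bounds 0.236 and 0.710, 15.9 reads) and was the only co-receptor whose lower bound exceeded 0. Ir76b was at 0.0357, a single read, and Ir8a, the co-receptor of acid-sensing receptors, was listed at 0. Of the 4 co-receptors 3 therefore lay at or under the level that a count of 0 allows, and none of the loci of the 4 overlaps another listed gene. Ir25a nevertheless lies 159 bp from Fnta, at FPKM 74.1, and 34 bp from tank, at 4.93. The part of these neighbors in the Ir25a value was not tested. Ir8a, listed at 0, also lies within 500 bp of a listed gene at FPKM 10 or more.

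Among the olfactory receptors, Or43b, a receptor of adult antennal neurons, was highest at an FPKM of 14.4 (bounds 12.5 and 16.3, 224 reads). It occupies bases 3808340 to 3810109 of chromosome 2R (dm3), and its end overlaps Cul1, a scaffold of SCF ubiquitin ligases with an FPKM of 77.2. In the dm6 gene models 575 of the 1412 exon bases of Or43b (40.7%) are also exon bases of Cul1 on the opposite strand. The sources used here do not say whether the reads kept their strand, so reads from such shared bases cannot be told apart. The part of Cul1 in the Or43b value was not tested.

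The next olfactory receptors were well below. Or71a, a receptor of the maxillary palp, stood at 3.76 (bounds 2.73 and 4.78) and lies within Plp, a pericentriolar protein gene at FPKM 20.9, without sharing an exon base. Or23a, of adult antennal neurons, was at 2.55 (bounds 1.71 and 3.38), and 69 of its exon bases are shared with Prosbeta4R2, a gene of a proteasome subunit at FPKM 44.9. Or35a, found in coeloconic sensilla of the adult antenna and in larvae, was at 1.76 with bounds of 1.04 and 2.47 from 24.0 reads. Its locus overlaps no listed gene, and the nearest listed genes lie 4333 and 5125 bp away. Or35a was the olfactory receptor gene that reached FPKM 1 with its lower bound and had no other listed gene on or close to its locus.

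Or1a, a larval receptor, was at 1.45 (bounds 0.769 and 2.14) and lies inside CG3777, at FPKM 10.4, with no shared exon base. Or88a, which responds to fly-derived odors in the adult antenna, was at 1.005, on the boundary, with bounds of 0.447 and 1.56 from 13.0 reads. No listed gene overlaps it, but 1036 of its 1206 exon bases in dm6 are covered by an unlisted antisense RNA gene, asRNA:CR44237. Below the boundary the nearest was Or85f at 0.660 (8.0 reads), followed by Or2a at 0.643.

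The olfactory receptors known from larvae did not stand above the rest of the family by their median. Of 25 genes listed as larval olfactory receptors, 9 were at 0 and 2 (Or35a and Or1a) reached FPKM 1, with a median of 0.0832. Of the 34 other genes of the family besides Orco, 13 were at 0 and 4 reached FPKM 1, with a median of 0.121. Over all listed genes 10.9% were at 0 and 74.5% reached FPKM 1. Of 7 receptors of the adult maxillary palp, 2 were at 0 and only Or71a reached FPKM 1, with a median of 0.189. The lowest of the larval and palp lists, such as Or22c and Or59c, were listed at 0. Or19a and Or19b, a near-identical pair whose reads could be split or dropped in mapping, were both listed at 0.

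The gustatory family had the most genes at FPKM 1 or more and none at 10. Gr97a was highest at 6.79 (bounds 5.35 and 8.24, 88.0 reads). No listed locus overlaps it, and Tsp97E, a tetraspanin gene at FPKM 246.8, lies 318 bp away. Gr59f followed at 2.97 (bounds 2.02 and 3.92), with AIMP3, a gene of the aminoacyl-tRNA synthetase complex at 73.8, at a distance of 155 bp. Its neighbor Gr59e, 130 bp away, was at 1.25 (bounds 0.582 and 1.92). This was the single cluster of neighboring receptor genes in which every gene reached FPKM 1.

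The sugar receptors had the highest share of genes at FPKM 1 of the receptor lists used here. These short lists were chosen with earlier results of these data known. Of 8 measured sweet receptors 4 (50%) reached FPKM 1, against 74.5% of all listed genes, and 2 were at 0. Their median was 0.735, compared with 6.90 over all listed genes. Gr5a, a receptor for trehalose, was at 2.22 (bounds 1.43 and 2.998, 32.0 reads). No listed gene overlaps it, Tre1, at 75.9, lies 641 bp away, and an unlisted antisense RNA gene, asRNA:CR44958, covers 1108 of its 1490 exon bases in dm6. Gr43a, the fructose receptor, which also acts as an internal nutrient sensor in the brain, was at 2.09 (bounds 1.37 and 2.81). Its locus overlaps Dhx15, a helicase gene at 11.1, and 155 of its exon bases (10.2%) are shared.

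Gr61a, a receptor for glucose, was at 1.35 (bounds 0.791 and 1.91), 90 bp from JMJD5, a gene of a JmjC-domain protein at FPKM 14.2. Gr64e, which senses glycerol, was at 1.23 (bounds 0.661 and 1.81), while the other 4 measured genes of its cluster, Gr64a, Gr64c, Gr64d and Gr64f, lay between 0 and 0.236. In dm6, 2882 of the 2909 exon bases of Gr64e (99.1%) belong to Gr64d as well, listed at 0, so the division of reads between this pair rests on the estimate of the transcripts and not on separate sequence. The lowest sweet receptors, Gr64c and Gr64d, were listed at 0.

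All 5 bitter receptors of the list, a short one chosen with earlier results of these data known, were above 0, with a median of 0.581. Of the whole gustatory family, 36.8% were listed at 0. Gr39a, whose transcripts serve bitter taste and courtship, was at 2.32 (bounds 1.14 and 3.50, about 15.5 reads over its 4 annotated transcripts) and overlaps Mondo, the gene of a sugar-responsive transcription factor at 36.9, with no shared exon base. Gr32a was at 0.687, Gr66a, part of the caffeine response, at 0.581 and Gr33a, used broadly in bitter neurons, at 0.453. Gr32a shares 164 exon bases with CG6230, at 20.5. Gr66a lies 10 bp from Sbp2, at 57.8, and 164 bp from BI-1, at 393.0. The lowest of the list was Gr89a, at 0.292 from 3 reads, 98 bp from Decay at 56.6. Of the pair that detects carbon dioxide, Gr21a was listed at 0 and Gr63a was at 0.129, with 2 reads.

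Of the gustatory receptors outside these lists, Gr77a was at 1.84 (bounds 1.12 and 2.56) and lies in the locus of CG13252, at 48.8, sharing no exon base. Gr47b was at 1.82 (bounds 1.04 and 2.60), 28 bp from san, the gene of an acetyltransferase needed for sister chromatid cohesion, at 93.7. Just below the boundary, Gr22f stood at 0.983 with 12.0 reads and Gr28b, whose isoforms act in heat and light sensing, at 0.878.

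Ir75d was the highest of all 180 genes, at an FPKM of 107.4 (bounds 102.5 and 112.3, 1918 reads), which was 7.45 times that of Or43b, the next. It encodes an antennal receptor for amines and occupies bases 18901360 to 18904282 of chromosome 3L (dm3). The locus of COX6AL2, a gene of a cytochrome c oxidase subunit at FPKM 22.1, starts at the same base and ends at 18907250. Both genes lie on the minus strand, and 2098 of the 2312 exon bases of Ir75d in dm6 (90.7%) are also exon bases of COX6AL2. Prp6, a splicing factor gene on the plus strand with an FPKM of 3.23, covers 505 of its exon bases. The ratio of Ir75d to COX6AL2, 4.87, is thus one of 2 estimates made largely on the same bases, and the share of its reads that came from COX6AL2 transcripts was not tested.

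Ir76a, an antennal receptor for amines that works with Ir76b, was at 13.7 (bounds 11.8 and 15.5, 227 reads). Its locus overlaps CG14102 at FPKM 6.23, with 297 exon bases (14.1%) shared on the opposite strand, and TORIP, at 102.0, begins 310 bp away. Ir94d was at 11.0 (bounds 9.55 and 12.5, 219 reads), and 429 of its exon bases (24.1%) are shared on the opposite strand with CG17380, at 16.9. Ir94e, a taste receptor 369 bp further on, was at 0.0474, a single read. Ir75d, Ir76a and Ir94d, like Or43b, thus all share exon bases with another listed gene. Of all listed genes at FPKM 10 or more, 43.9% have a locus that overlaps another listed gene. Shared exon bases were not taken over all listed genes.

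Ir40a stood apart from Ir75d, Ir76a, Ir94d and Or43b. It serves the sensing of dry air in the sacculus of the antenna and was at 7.48 (bounds 5.83 and 9.14, 81.7 reads). Its locus on 2L, from 22189526 to 22214265, overlaps no listed gene, shares no exon base in dm6, and lies 5534 and 11885 bp from its neighbors, CG3635 at 0.793 and CR12628 at 0. Ir40a was the highest receptor gene of which this held. In dm6 it has 3 annotated transcripts, and each implied read was worth an FPKM of 0.0916. The median in the ionotropic genes above 0 was 0.0459. The part of the division of reads among its transcripts in this value was not tested. Ir93a, which acts with Ir25a and Ir40a in humidity sensing and also in cool sensing, was at 3.68 (bounds 2.99 and 4.37, 114 reads). RpS30, a gene of a ribosomal protein at FPKM 4772, lies 281 bp from it, and the glutamate receptor gene KaiR1D, at 1.49, lies 241 bp on the other side. Ir68a, which serves moist-air sensing, was at 0.835.

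The last ionotropic genes at FPKM 1 or more were Ir51b, at 1.55 (bounds 1.02 and 2.09), within row at 11.4, and Ir62a, which takes part in calcium taste, at 1.18 (bounds 0.710 and 1.66), within Iml1 at 4.87. Neither shares an exon base with its host gene. Directly below stood Ir51a at 0.903 (18.0 reads), which the dm6 annotation calls a pseudogene. The other pseudogenes of the family, Ir60c and Ir48a, were at 0.144 and 0.134.

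Of 17 ionotropic receptors of the antenna, 4 were at FPKM 1 or more (Ir75d, Ir76a, Ir40a and Ir93a) and 3 at 0 (Ir8a, Ir64a and Ir84a), with a median of 0.476. Of the 46 others, many of them taste receptors, 3 were at FPKM 1 or more and 22 at 0, with a median of 0.0425. No test of this difference could be made within 1 library.

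**Figure D4:**
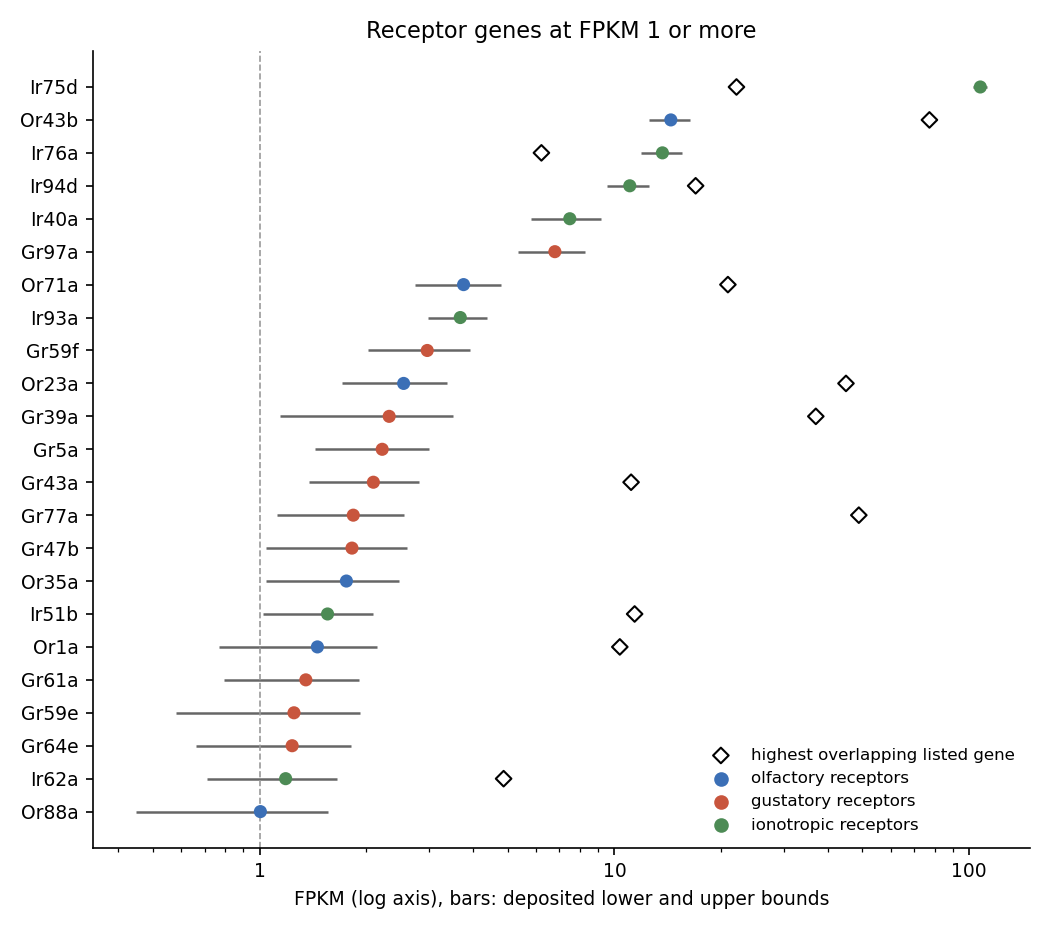
The 23 receptor genes at FPKM 1 or more, with FPKM on a log axis (points, colored by family), the deposited lower and upper bounds (bars) and the FPKM of the highest listed gene that overlaps the locus (open diamonds). Of the 13 genes with an overlapping gene, 10 have a diamond to the right of their own point, Ir75d and Ir76a have it to the left, and Gr64e has none drawn because Gr64d is listed at 0.

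Overlap with another gene was more frequent among the exceptions than among the other receptor genes. Of the 23 genes at FPKM 1 or more, 13 (56.5%) had a locus that overlaps another listed gene, compared with 30 of the 157 genes below 1 (19.1%). Over all listed genes the shares were closer, 43.9% at FPKM 1 or more and 33.9% below. Seen from the other side, 13 of 43 overlapping receptor genes (30.2%) reached FPKM 1, with a median of 0.344, and 10 of 137 non-overlapping ones (7.30%), with a median of 0.0795. For all listed genes these shares were 79.1% and 71.3%.

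**Figure D5:**
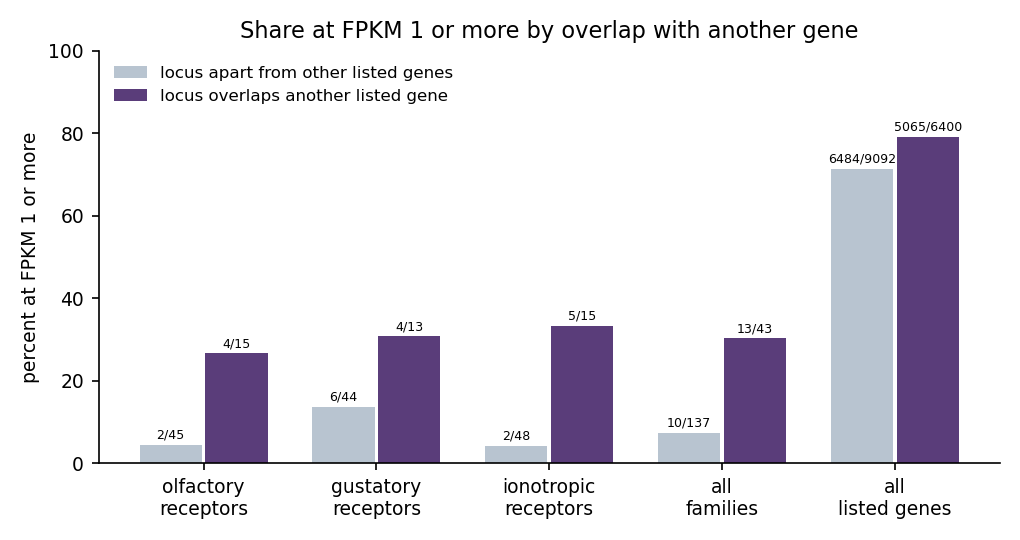
Percent of genes at FPKM 1 or more (vertical axis, with counts over the bars) for genes whose locus does or does not overlap another listed gene, by receptor family, over all families and for all listed genes. The share is higher with overlap in each family, 30.2% against 7.30% over all families, while all listed genes stand at 79.1% and 71.3%.

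Of the 13 overlapping genes at FPKM 1 or more, 7 share exon bases with a listed gene in dm6 and 6 lie on a listed gene without sharing any. These 7 are 30.4% of the 23 genes, and 15 of the 157 receptor genes below FPKM 1 (9.55%) share exon bases with a listed gene. The overlapping gene, or the highest of several, had the higher FPKM in 10 cases and the lower in 3, those of Ir75d, Ir76a and Gr64e. Over all listed genes the median FPKM was 6.90 and 43.3% were at 10 or more. A higher partner is therefore common for a gene of low FPKM, and the count was not compared with other genes. Of the 10 genes without overlap, 5 lie within 500 bp of a listed gene at FPKM 10 or more. The remaining 5 were Or35a, Or88a, Gr5a, Gr59e and Ir40a. Or88a and Gr5a are covered in part by unlisted antisense RNA genes in dm6, which leaves Or35a, Gr59e and Ir40a. When the distance of 500 bp, chosen after the values were seen, was applied to all genes, 16 of 45 receptor genes on or near a gene at FPKM 10 or more reached FPKM 1 (35.6%) and 7 of 135 elsewhere (5.19%), compared with 86.6% and 63.9% of all listed genes.

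Of the 157 genes below FPKM 1, 28 had a lower bound above 0. The highest of them besides those already given were Ir41a at 0.774 with bounds of 0.428 and 1.12, Ir60b at 0.667 (13.0 reads), Gr94a at 0.648 (8.0 reads), Or85e, of the maxillary palp, at 0.571 (8.0 reads) and Ir21a, a receptor for cooling, at 0.567 with bounds of 0.313 and 0.820. In dm6, 2087 of the 2629 exon bases of Ir21a (79.4%) are shared with asRNA:CR43609, at FPKM 3.38 on the opposite strand. Ir21a also lies 446 bp from l(2)gl, at 77.2, and Ir60b lies 404 bp from FBgn0019886, at 28.5. Gr94a overlaps the locus of p53, at 15.7, with no shared exon base. Some receptors of adult courtship and pheromone sensing were picked after the values were seen, besides Gr39a and Or88a, which were at FPKM 1 or more. Or67d, the receptor of the male pheromone cis-vaccenyl acetate, was at 0.244 from 3 reads and Or65a at 0.146 from 2 reads. Or47b, Gr68a, Ir84a and the genes Ir52a to Ir52d were listed at 0.

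Of the 23 genes, 17 also had a lower bound of at least 1, with 4 olfactory, 7 gustatory and 6 ionotropic genes. The 6 that did not were Or1a, Or88a, Gr59e, Gr61a, Gr64e and Ir62a, all of them at an FPKM below 1.5.

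The receptor genes often lie in clusters, taken here by distance alone, so that genes of different families could fall together. With a gap of at most 10000 bp between neighbors, 87 genes formed 31 clusters, of which 27 had no gene at FPKM 1 and 3 were listed at 0 throughout: Ir52a to Ir52d, the pair of Or59b and Or59c, and Gr8a with Ir8a. In the cluster of Ir75a, Ir75b and Ir75c, which respond to acids, FPKM was 0.494, 0.476 and 0.0449, far below the 107.4 of Ir75d, which lies elsewhere on 3L. Ir94d and Ir94e had the largest difference in FPKM within a cluster, at 11.0 and 0.0474, but Ir94d shares 24.1% of its exon bases with CG17380, at 16.9. Of the clustered genes 5 reached FPKM 1 and 37 were at 0, and of the 93 that lie alone 18 reached FPKM 1 and 31 were at 0.

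By chromosome arm, receptor genes at FPKM 1 or more numbered 4 of 30 on 2L, 6 of 49 on 2R, 7 of 34 on 3L, 4 of 43 on 3R and 2 of 24 on X. Over all listed genes the shares by arm, in the same order, were 74.0%, 75.2%, 76.5%, 75.9% and 73.8%. On X 13 of the 24 receptor genes were listed at 0, and on 2R 23 of the 49. The share of all listed genes at 0 was not taken by arm. Their median FPKM was 4.55 on X and 7.30 to 8.64 on 2L, 2R, 3L and 3R. In the dm6 models the median protein has 397 residues for olfactory, 399 for gustatory and 605 for ionotropic receptors, and 32 of the 63 ionotropic genes have a single exon, compared with 2 gustatory and no olfactory genes. FPKM is scaled by transcript length, so 1 read gives a lower FPKM in a longer gene. Over genes above 0, 1 read was worth a median FPKM of 0.0771 in olfactory, 0.0774 in gustatory and 0.0459 in ionotropic genes. Values of a few reads therefore do not compare levels between genes of different length.

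Genes that work beside the receptors or in other sensory neurons gave a mixed picture. The list of 25 covers genes of chemosensory neurons, their support cells and signaling. It also holds genes of mechanosensory and photoreceptor cells and genes of wide use. Of the 25, 11 (44%) reached FPKM 1, against 74.5% of all listed genes, and the median of the list was 0.525. Among them nompC, a mechanosensory channel, and Arr2, an arrestin of photoreceptors, were listed at 0, and the highest was Galphaq, a G protein subunit used in many tissues, at 87.1. Snmp1, the membrane protein of pheromone-sensing neurons, was at 0.384, lush, an odorant binding protein, at 1.01, and acj6, a transcription factor for olfactory receptor choice, at 0.324 (bounds 0.00748 and 0.640). Another such factor, pdm3, was at 4.15 (bounds 3.45 and 4.86), and the transcription factor gene onecut stood at 9.40. The proneural gene ato, which founds coeloconic sensilla, the eye and the chordotonal organs, stood at 4.33, and amos, the proneural gene of the other olfactory sensilla, at 0.0733 from a single read.

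The other ionotropic glutamate receptors, the relatives from which the ionotropic family derives, were above 0 in each of 13 cases. Only 10.9% of all listed genes were at 0. Of the 13, 6 (46.2%) reached FPKM 1, against 74.5% of all listed genes, and the median was 0.509. They ranged from Grik at 0.108 to GluRIID, a subunit of the neuromuscular junction, at 4.63. Of 12 measured neuron genes 9 (75%) reached FPKM 1, close to the 74.5% of all listed genes. The list's median was 4.18, compared with 6.90 over all listed genes, and its values ran from ChAT, the enzyme that makes acetylcholine, at 0.389 to the synaptic vesicle gene Syt1 at 24.0, with elav at 10.8. Markers of other tissues ranged from the muscle gene Mhc at 4.82, through the salivary glue genes Sgs7 at 434.4 and Sgs8 at 546.4 and the testis gene Mst87F at 721.4, to the gut protease gene Jon65Aiv at 2508 and the fat body genes Lsp2 at 6146 and Fbp1 at 6499.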

How the data were processed

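RNA from whole white prepupae was sequenced by the authors as single-end reads, trimmed and mapped with TopHat, and FPKM per gene was computed with Cufflinks. Bowtie, SAMtools and the build dm3 are named in the submitters' processing notes. The sources used here give no tool versions, no read strand and no rule for reads with several matches. The table deposited by the authors holds FPKM with lower and upper bounds and a status, which was OK for 15403 of 15494 rows and for all 180 receptor genes. The other 3 libraries were not used.

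Gene names were taken from a D. melanogaster table, which left 620 of the 15492 genes unnamed. Reads were solved from the bounds, taken as 2 standard errors of a read count from the FPKM. Of 111 receptor genes above 0 with fewer than 300 reads, 94 (84.7%) came out whole within 0.05, and 69.4% over all listed genes, so implied reads are approximate. The bounds arithmetic was tested on simulated data. Loci and distances are those of the deposited table (dm3), while exons, strand, gene type and protein length come from the dm6 models of Ensembl release 115. Python 3.11.15, numpy 2.4.6, pandas 2.3.3 and matplotlib 3.10.9 were used.

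Named were all receptor genes at FPKM 1 or more, the 5 highest of each family, those nearest FPKM 1, the co-receptors, Gr21a and Gr63a, the highest and lowest of each of 10 gene lists, and genes that overlap a named gene. Other genes were named after their values were seen. The genes and lists were chosen with earlier results of these data known, and the lists rest on general knowledge. No p-value was computed, as there was 1 library. Alternatives were FPKM minimums of 0.1 and 5, the lower bound, status OK, the largest row of a gene, counting at most 3 reads as 0, genes above 0, genes without overlap and a protein-coding background, and, chosen after seeing the data, genes without shared exon bases, without a gene at FPKM 10 or more within 500 bp, and protein-coding genes.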

Additional observations from a re-analysis of the deposited data

How the results depend on the processing

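Counts at FPKM 1 or more moved most with the minimum. At an FPKM minimum of 0.1 they were 28 olfactory, 25 gustatory and 26 ionotropic receptor genes, 79 in all, and at a minimum of 5 they were 1, 1 and 4, 6 in all. Without genes whose locus overlaps another listed gene the counts were 2 olfactory, 6 gustatory and 2 ionotropic, 10 in all. Leaving out genes that share exon bases with another dm6 gene gave 3 olfactory and 4 ionotropic genes, 14 in all. Leaving out genes on or within 500 bp of a listed gene at FPKM 10 or more gave 2, 3 and 2, 7 in all. When genes with at most 3 reads were added to those at 0, the zeros numbered 43 olfactory, 39 gustatory and 42 ionotropic, 124 in all. Over genes above 0 alone the median was 0.226 for the olfactory, 0.264 for the gustatory and 0.357 for the ionotropic family, and 0.240 over all families, each more than 1.5 times the median over all genes of the group. The share of all listed genes at FPKM 1 or more ranged from 55.5% at a minimum of 5 to 86.8% at 0.1. Restricting to status OK or to the largest row of a gene removed no receptor gene and tested nothing. No paired analysis was possible because there was 1 library and no replicate. At a median of 14.0 reads for FPKM 1, levels below the 3 reads that a count of 0 allows cannot be ordered.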
